A study of Mus musculus with 4 samples.

Results

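The 10 genes examined encode neutrophil granule proteins or other abundant myeloid proteins, out of 12417 genes kept in the series. They were chosen by symbol. Mpo, Elane, Prtn3 and Ctsg form a primary (azurophil) granule group of 4, Ltf, Camp and Ngp a late granule group of 3, and S100a8, S100a9 and Lyz2 a remaining group of 3. Each had 1 row in at least 1 library, and none shared a row with another gene name.

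Neutrophil granules are filled in a fixed order during granulocyte maturation. Primary granule proteins are made from the granulocyte and monocyte progenitor to the promyelocyte stage, and their mRNAs are known to appear already in immature, kit-positive marrow cells. Proteins of the later, secondary granules are made from the myelocyte stage on, when the primary granule genes have been switched off. S100a8 and S100a9 encode the subunits of calprotectin, a calcium-binding protein of the cytosol of neutrophils and monocytes, and Lyz2 encodes the lysozyme of myeloid cells.

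RNA-seq was carried out on 4 bone marrow libraries, with 1 library in each group and hence no replicates. WT HSC and GRK6-/- HSC were hematopoietic stem cells gated as Lin- c-kit+ sca-1+, and WT CLP and GRK6-/- CLP were common lymphoid progenitors, for which Il-7Ra+ was added to that gate. Both genotypes were on the C57BL/6 strain, with littermates as the WT, and the methods give 8 to 12 weeks as the age of mice unless stated otherwise. GRK6-/- mice lack exons 3 to 9 of Grk6, the gene of a kinase that phosphorylates G protein-coupled receptors, in the whole animal. Between 13 and 15 cells taken from 3 to 4 mice were lysed one by one, their cDNA was amplified with 20 and then 10 PCR cycles, and the products were combined. The HSC gate takes in multipotent progenitors, and the HSC label does not state that Il-7Ra+ cells were left out. A pooled value does not show how many of the cells held a transcript, and fewer cells with a transcript cannot be told apart from less transcript in each. With no replicate, no spread could be had for any value, and no neighbouring pair in an order of libraries is shown to differ.

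The level of Grk6 went against the genotype labels. It was 42.7 FPKM in WT HSC against 89.4 in the library labelled GRK6-/- HSC, and among the CLP libraries 26.9 in WT against 57.6 in the one labelled GRK6-/-. FPKM is the number of fragments scaled to the length of the transcript and to the mapped fragments of the library. A single value for a gene does not show which exons its fragments came from, so the labels were neither borne out nor refuted, and every direction between genotypes given here rests on them. Il7r, the gene of the receptor chain that defines the CLP gate, was listed at 0 in WT HSC and stood at 1.08 FPKM in the library labelled GRK6-/- HSC, against 120 in WT CLP and 75.1 in the library labelled GRK6-/- CLP. Kit lay between 26.2 and 81.8 FPKM in the 4 libraries, and Ly6a, the gene of sca-1, had no row of its own. Ly6g, a surface antigen of mature neutrophils, had no row in any library, and Itgam (CD11b) was at 3.21 FPKM or less. The library labelled GRK6-/- CLP stood apart by the globin gene Hba-a2, with 17219.5 FPKM against 5.98 to 53.2 in the other 3 libraries, while the erythroid genes Car1, Car2 and Epor were highest in the library labelled GRK6-/- HSC (612, 955 and 18.0 FPKM against 67.3, 577 and 7.43 in the labelled GRK6-/- CLP). An absent row was read as 0 and is called listed at 0, because the files do not say why a row is absent. The ribosomal protein genes Rps27 in the library labelled GRK6-/- HSC and Rpl30 in WT CLP were also without a row, although each had at least 100 FPKM in the 3 other libraries, so a value of 0 does not show absence of the transcript.

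The primary granule genes were among the most abundant transcripts of all 4 libraries, whereas the late granule genes were low or listed at 0. Elane, the gene of neutrophil elastase, was the highest member in every library, with 7008 FPKM in WT HSC, 4999.8 in the library labelled GRK6-/- HSC, 3803 in WT CLP and 3516 in the library labelled GRK6-/- CLP. Its rank among all genes was 4, 10, 14 and 13 in the same order. Mpo encodes myeloperoxidase, the enzyme that makes hypochlorous acid from hydrogen peroxide and chloride. It was measured at 3549.7 FPKM in WT HSC, 2038 in the library labelled GRK6-/- HSC, 1023 in WT CLP and 889.9 in the library labelled GRK6-/- CLP, ranking between 16 and 72. Of the 4 primary genes it varied most, with a highest value 3.99 times its lowest.

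Prtn3 encodes proteinase 3, a serine protease related to elastase. Its levels were 3494 FPKM in WT HSC, 2512 in the library labelled GRK6-/- HSC, 2335 in WT CLP and 1936 in the library labelled GRK6-/- CLP, a range of 1.80 times. Ctsg, the gene of the serine protease cathepsin G, had 1958, 1558, 1309.8 and 919 FPKM in WT HSC, labelled GRK6-/- HSC, WT CLP and labelled GRK6-/- CLP, a range of 2.13 times. All 4 genes were therefore highest in WT HSC, second in the labelled GRK6-/- HSC, next in WT CLP and lowest in the labelled GRK6-/- CLP. This order was noticed after the values were seen. Among the 492 genes with at least 100 FPKM in all 4 libraries, 52 had it, which is 10.6%. In TPM, that is FPKM divided by the sum of FPKM of the library, the order of the 4 genes was the same, although neighbouring values could be close, as for Elane with 5885 in WT CLP and 5876 in the labelled GRK6-/- CLP.

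**Figure D1:**
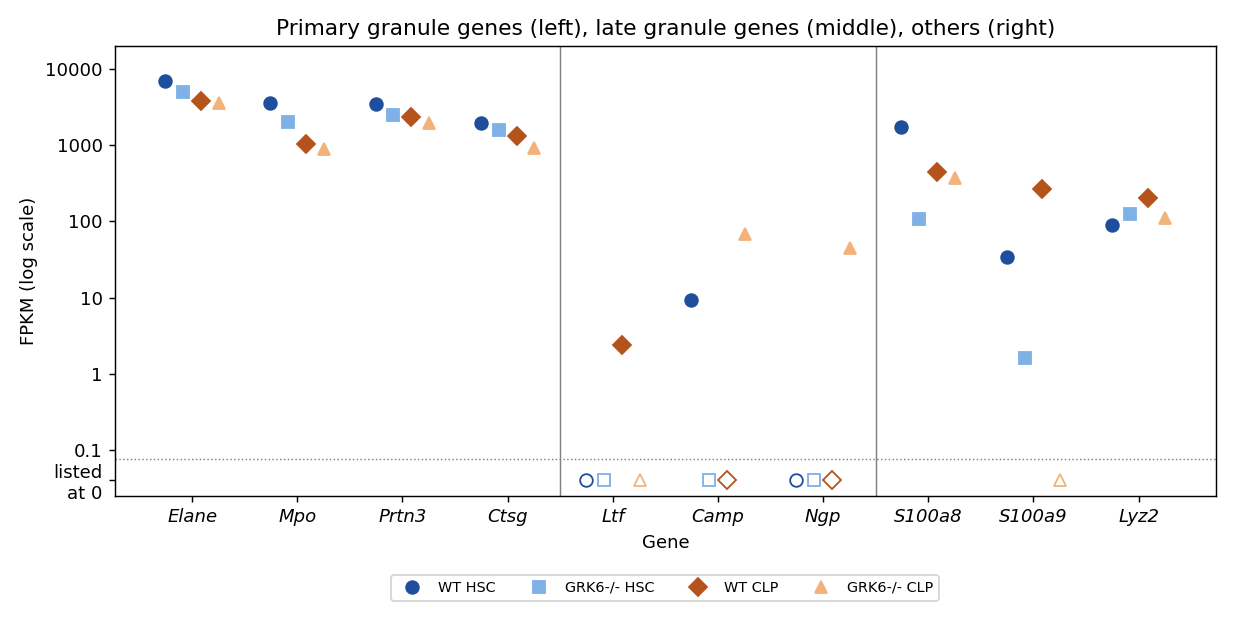
FPKM of the 10 genes on a log axis, with 1 point for each of the 4 libraries (filled symbols) and open symbols below the dotted line where a library listed the gene at 0. The primary granule genes lie between 889.9 and 7008 FPKM, and the late granule genes reach at most 68.0 FPKM and are open in 8 of 12 cases.

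The late granule genes had values in 4 of 12 cases. Ltf, which encodes the iron-binding protein lactoferrin, had a value only in WT CLP, at 2.40 FPKM, corresponding to about 29 fragments. Camp encodes the precursor of the cathelicidin antimicrobial peptide. It was at 9.37 FPKM in WT HSC (about 16 fragments) and 68.0 in the library labelled GRK6-/- CLP (about 114 fragments), and was listed at 0 in the other two libraries. Ngp, the gene of neutrophilic granule protein, had a value only in the library labelled GRK6-/- CLP, at 44.7 FPKM, about 152 fragments. Camp and Ngp were thus high in the same library, in which Ltf was listed at 0. At the depth estimated for these libraries, 3 fragments would have given between 0.251 and 0.392 FPKM for Ltf, 1.15 to 1.79 for Camp and 0.566 to 0.883 for Ngp. These fragment numbers come from steps in the low values and are rough, above all for Camp with a transcript of 601 bases.

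The sum of the 4 primary genes was 16009 FPKM in WT HSC, 11107 in the labelled GRK6-/- HSC, 8471 in WT CLP and 7261 in the labelled GRK6-/- CLP. These sums made up 2.52%, 1.60%, 1.31% and 1.21% of the FPKM of the libraries. The sum of the 3 late genes was 9.37 FPKM in WT HSC, 0 in the labelled GRK6-/- HSC, 2.40 in WT CLP and 113 in the labelled GRK6-/- CLP. The primary sum was 1708 times the late sum in WT HSC, 3529 times in WT CLP and 64.4 times in the labelled GRK6-/- CLP. On the scale of log2(FPKM + 1), the mean of the primary genes exceeded that of the late genes by 10.69 in WT HSC, 11.30 in the labelled GRK6-/- HSC, 10.27 in WT CLP and 6.71 in the labelled GRK6-/- CLP. The smaller gap in the last library came mostly from a higher late mean (3.87 against 0 to 1.12). The primary mean was also lower, by less (10.59 against 10.86 to 11.82). The higher late mean rested on Camp and Ngp in that 1 library, and the late sum of the 3 other libraries was at most 9.37 FPKM. Other late neutrophil genes, given below, went both ways between the CLP libraries. Some markers of other cells were also high in the labelled GRK6-/- CLP. The erythroid list, with 7 of 10 genes in a row of their own, summed to 18111 FPKM against 154 to 1701 elsewhere, but without Hba-a2 to 891, below the 1648 of the labelled GRK6-/- HSC. The B lineage list, with 9 of 10, summed to 1533 against 128 to 1164, although Dntt (562 against 931 FPKM), Rag1 (2.47 against 23.0) and Rag2 (0 against 94.5) were lower than in WT CLP. Their part in the late granule values was not tested.

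The loci place Prtn3 beside Elane and S100a8 near S100a9, and the late granule genes farther apart on 1 chromosome. Distances are those between annotated transcripts, whose ends can differ from the ends of the deposited rows. By the mm9 coordinates of the deposited rows and the GENCODE annotation of that build, Prtn3 (chr10:79342357-79345922, plus strand, 5 exons) lies 3137 bases from Elane (chr10:79349011-79350965, plus strand, 5 exons). Elane had 2.01 times the FPKM of Prtn3 in WT HSC, 1.99 times in the labelled GRK6-/- HSC, 1.63 times in WT CLP and 1.82 times in the labelled GRK6-/- CLP, so the ratio of these neighbours stayed between 1.63 and 2.01. Other genes within 100 kb had other orders of libraries. Prss57, which encodes a further serine protease of primary granules, was at 95.2, 50.8, 85.8 and 66.1 FPKM in WT HSC, labelled GRK6-/- HSC, WT CLP and labelled GRK6-/- CLP, and the splicing regulator gene Ptbp1 at 176, 191, 136 and 139. Mpo (chr11:87607286-87617915, plus strand, 14 exons) and Ctsg (chr14:56718718-56721411, minus strand, 5 exons) lie on other chromosomes. Mpo was 0.507 times Elane in WT HSC, 0.408 times in the labelled GRK6-/- HSC, 0.269 times in WT CLP and 0.253 times in the labelled GRK6-/- CLP. The late granule genes Camp (chr9:109749891-109751970, minus strand, 4 exons), Ngp (chr9:110322312-110325516, plus strand, 4 exons) and Ltf (chr9:110921796-110945270, plus strand, 17 exons) lie in this order on 1 chromosome, 570283 and 596281 bases apart.

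The 250 bases before the transcription start are shown for the primary granule genes, because these genes kept 1 order across the libraries. The late genes did not share it, and of them Ltf and Ngp are shown and Camp is not. The sequences are from RefSeq (build GRCm38.p6), in which 10 of 10 members matched, and are written 5′ to 3′ on the strand of the gene. They span chr10:79886062-79886311 for Elane (plus strand), chr10:79879417-79879666 for Prtn3 (plus), chr11:87793534-87793783 for Mpo (plus), chr14:56102575-56102824 for Ctsg (minus), chr9:110419558-110419807 for Ngp (plus) and chr9:111019042-111019291 for Ltf (plus). These coordinates belong to another build than the mm9 positions above. Capitals mark matches, on either strand, to letters taken from the usual recognition sites of 4 regulators of myeloid genes: GAGGAA for PU.1, TTGCNNAA for C/EBP, TGTGGT for RUNX and AACNGNC for MYB.
Elane: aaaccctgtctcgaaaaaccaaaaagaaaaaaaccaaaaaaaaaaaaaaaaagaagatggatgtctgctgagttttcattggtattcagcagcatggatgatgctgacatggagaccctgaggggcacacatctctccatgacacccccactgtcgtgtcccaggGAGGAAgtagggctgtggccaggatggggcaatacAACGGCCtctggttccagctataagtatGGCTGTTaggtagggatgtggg
Prtn3: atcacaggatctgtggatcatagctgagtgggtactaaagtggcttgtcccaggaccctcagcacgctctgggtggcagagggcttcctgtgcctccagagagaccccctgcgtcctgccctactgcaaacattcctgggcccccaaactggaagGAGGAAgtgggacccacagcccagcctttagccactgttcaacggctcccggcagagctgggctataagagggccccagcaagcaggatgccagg
Mpo: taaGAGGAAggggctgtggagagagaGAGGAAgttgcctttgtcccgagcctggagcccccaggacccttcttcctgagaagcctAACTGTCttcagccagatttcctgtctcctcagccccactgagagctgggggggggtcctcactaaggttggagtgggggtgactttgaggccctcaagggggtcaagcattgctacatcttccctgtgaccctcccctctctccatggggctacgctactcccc
Ctsg: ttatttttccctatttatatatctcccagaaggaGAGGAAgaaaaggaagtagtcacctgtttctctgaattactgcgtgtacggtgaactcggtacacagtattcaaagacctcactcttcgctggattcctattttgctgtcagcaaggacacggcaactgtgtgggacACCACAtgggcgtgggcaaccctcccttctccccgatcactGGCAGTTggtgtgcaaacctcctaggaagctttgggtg
Ngp: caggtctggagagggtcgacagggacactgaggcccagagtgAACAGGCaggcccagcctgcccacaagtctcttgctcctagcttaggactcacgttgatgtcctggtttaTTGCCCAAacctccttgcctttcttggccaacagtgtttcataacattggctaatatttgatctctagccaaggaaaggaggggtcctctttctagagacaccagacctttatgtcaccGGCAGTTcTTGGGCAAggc
Ltf: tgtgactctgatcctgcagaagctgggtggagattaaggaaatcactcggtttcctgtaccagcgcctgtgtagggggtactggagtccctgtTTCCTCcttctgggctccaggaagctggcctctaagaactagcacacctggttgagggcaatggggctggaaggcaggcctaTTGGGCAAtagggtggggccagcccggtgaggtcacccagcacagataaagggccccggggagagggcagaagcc
Over the whole window of 250 bases before to 50 after the start, GAGGAA was found in 4 of 4 primary genes. It began 85 bases upstream of the start in Elane, 95 in Prtn3, 216 in Ctsg and both 247 and 224 in Mpo. It was also in 1 of 3 late genes (Ltf) and in S100a8, and 28.3% of 32851 RefSeq promoters held it. TTGCNNAA was in 0 of 4 primary genes and in 2 of 3 late genes, beginning 138 and 11 bases upstream in Ngp and 75 in Ltf, as well as in S100a9, and 10.8% of all promoters held it. AACNGNC was in Elane, Mpo, Ctsg and Ngp and in 32.8% of all promoters, and TGTGGT in Ctsg, Ltf, S100a9 and Lyz2 and in 16.8%. Camp, the late gene not shown, held none of these letters, so the late promoters shown are those with matches. No matches in the 10 genes overlapped. A match is a description of the letters and shows no binding.

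The calprotectin genes did not share the order of the primary granule genes. S100a8 (chr3:90472993-90473956, plus strand, 3 exons) was at 1706 FPKM in WT HSC, 106 in the library labelled GRK6-/- HSC, 439 in WT CLP and 371 in the library labelled GRK6-/- CLP. Its highest value, in WT HSC, was 16.1 times its lowest, in the other HSC library. S100a9 (chr3:90496555-90499613, minus strand, 3 exons), which lies 22597 bases from S100a8, was at 33.6 FPKM in WT HSC (about 50 fragments), 1.63 in the library labelled GRK6-/- HSC (about 3 fragments) and 269 in WT CLP (about 607 fragments), and was listed at 0 in the library labelled GRK6-/- CLP. The subunits, which pair one to one in the protein, differed in their transcript ratio between the libraries. S100a8 had 50.7 times the FPKM of S100a9 in WT HSC, 65.1 times in the labelled GRK6-/- HSC and 1.63 times in WT CLP, while in the labelled GRK6-/- CLP S100a8 at 371 FPKM stood beside S100a9 at 0. Both transcripts are short, with 392 and 519 bases. The depth behind the fragment numbers was estimated from transcripts of at least 1500 bases, so these numbers are rough.

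Lyz2 had 89.5 FPKM in WT HSC, 125 in the labelled GRK6-/- HSC, 204 in WT CLP and 110.4 in the labelled GRK6-/- CLP. It was the only member with a value in all 4 libraries that was highest in WT CLP. Its deposited row (chr10:116714387-116729924, minus strand) also spans the near-identical copy Lyz1 (chr10:116724852-116729924), which had no row in any library, so the value may hold fragments of both genes and is uncertain.

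Between the libraries labelled GRK6-/- and WT in HSC, the calprotectin genes differed by far more than the proteases. The log2 ratio of FPKM + 1 was -3.99 for S100a8 and -3.72 for S100a9, while Mpo had -0.80, Elane -0.49, Prtn3 -0.48, Ctsg -0.33 and Lyz2 0.48. The value of S100a9, with about 3 fragments in the labelled GRK6-/- HSC, depended on the amount added before the logarithm and was -1.91 with 10 FPKM and -4.28 with 0.1. Camp, at 9.37 FPKM in WT HSC, was listed at 0 in the labelled GRK6-/- HSC. With a fold taken as called at an absolute log2 ratio of at least 1, 3 of the 8 members with a value passed it, all lower in the labelled GRK6-/- HSC, which is 37.5% beside 37.4% of 11624 genes. The share of members past the fold was near that background. The median of the members was -0.64 and that of all genes 0.05. Among the 807 genes with a mean of at least 100 FPKM, 19.8% passed the fold, and of the 4 primary granule genes, which all belong to them, none did.

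In CLP, none of the 6 members with a value in both libraries passed the fold between the labelled genotypes. The log2 ratios of the labelled GRK6-/- CLP over WT CLP were -0.11 for Elane, -0.20 for Mpo, -0.27 for Prtn3, -0.51 for Ctsg, -0.24 for S100a8 and -0.88 for Lyz2. The 4 members past it were each listed at 0 in 1 library. Ltf and S100a9 had a value only in WT CLP, and Camp and Ngp only in the labelled GRK6-/- CLP. These 4 of 10 make 40%, where 50% of 11191 genes passed, and 25.7% of the 817 genes with a mean of at least 100 FPKM. The median was -0.26 for the members and 0.05 for all genes. All 4 primary genes were lower in the libraries labelled GRK6-/- in HSC and in CLP, with means of -0.52 and -0.27, none of them past the fold.

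Between CLP and HSC, Mpo stood out among the primary granule genes. Its log2 ratio of CLP over HSC was -1.79 in WT and -1.19 in the labelled GRK6-/-, so that it was 3.47 and 2.29 times higher in HSC. Elane had -0.88 and -0.51, Prtn3 -0.58 and -0.38, and Ctsg -0.58 and -0.76 in WT and in the labelled GRK6-/-. The mRNAs of all 4 primary granule genes, Mpo included, remained at 889.9 FPKM or more in the libraries gated for lymphoid progenitors. S100a8 had -1.96 in WT and 1.79 in the labelled GRK6-/-, opposite in sign, since it was highest in WT HSC and lowest in the labelled GRK6-/- HSC. S100a9 had 2.96 in WT, and in the labelled GRK6-/- a value of 1.63 FPKM in HSC stood beside 0 in CLP. Lyz2 had 1.18 in WT and -0.18 in the labelled GRK6-/-.

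In WT, 6 of 9 members with a value passed the fold (66.7%), 3 higher and 3 lower in CLP, beside 46.5% of 11202 genes and 23.8% of the 799 genes with a mean of at least 100 FPKM. In the labelled GRK6-/-, 5 of 9 passed it (55.6%), 3 higher and 2 lower, beside 45.6% of 11708 genes and 26.4% of the 821 genes of high level. The medians of the members were -0.58 and -0.38, and those of all genes both -0.08. Of the members past the fold, 2 in WT and 3 in the labelled GRK6-/- were listed at 0 in 1 of the libraries compared.

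**Figure D2:**
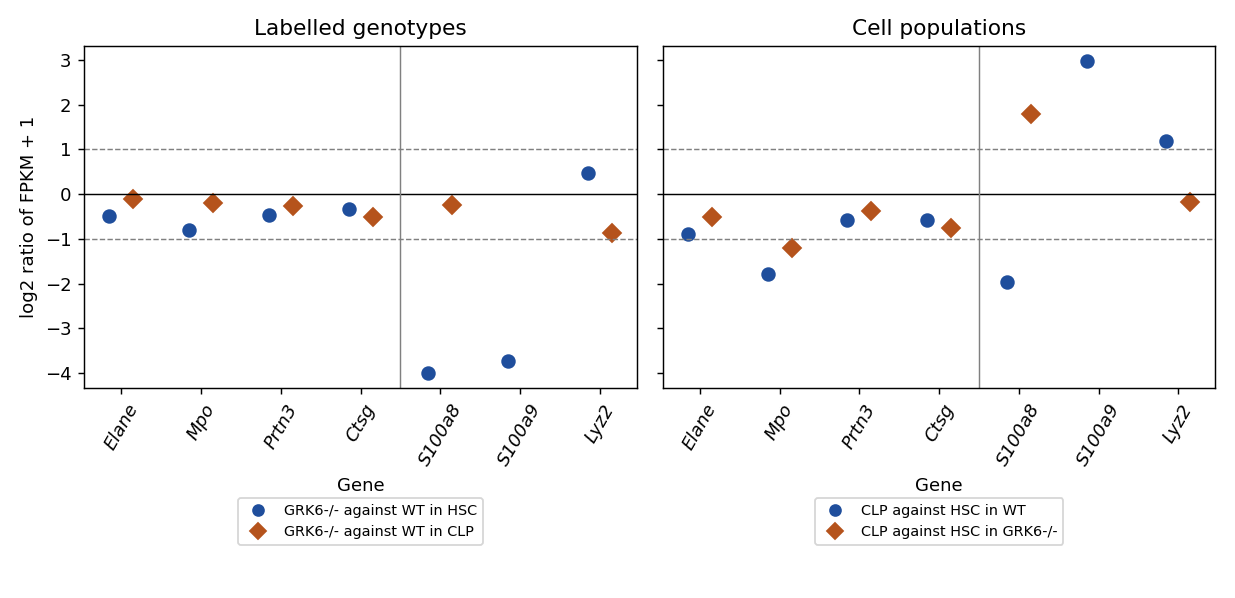
Log2 ratios of FPKM + 1 for the members with a value in both libraries, between the labelled genotypes (left panel) and between the cell populations (right panel), with dashed lines at an absolute log2 ratio of 1. The 4 primary granule genes are below 0 in all 4 comparisons, between -1.79 and -0.11, and S100a8 has -3.99 between the HSC libraries, while pairs with a library listed at 0 are left out.

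The genes whose profile over the 4 libraries was nearest to the mean profile of the primary granule genes encode proteins of other kinds. Likeness was the Euclidean distance between profiles of log2(FPKM + 1), each centred on its mean, over 487 other genes with at least 100 FPKM in every library. The nearest was the ribosomal protein gene Rpl41 at a distance of 0.17, with 6141 FPKM in WT HSC, 4684 in the labelled GRK6-/- HSC, 3505 in WT CLP and 2537 in the labelled GRK6-/- CLP. Ngfrap1 (0.19), the respiratory chain gene Uqcrq (0.22), Lsmd1 (0.23) and Higd2a (0.23) followed, while the median distance was 0.92. Of the members themselves, Elane lay at 0.18, Ctsg at 0.27, Prtn3 at 0.36 and Mpo at 0.69. All but Elane were thus farther from the mean profile of their group than each of those 5 genes, Mpo the most. Each of the 4 members is part of that mean, which makes its own distance smaller. Distances of members and of other genes are therefore not alike. The 4 points of each profile share their libraries, depth and scaling, and the distance carries no test.

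**Figure D3:**
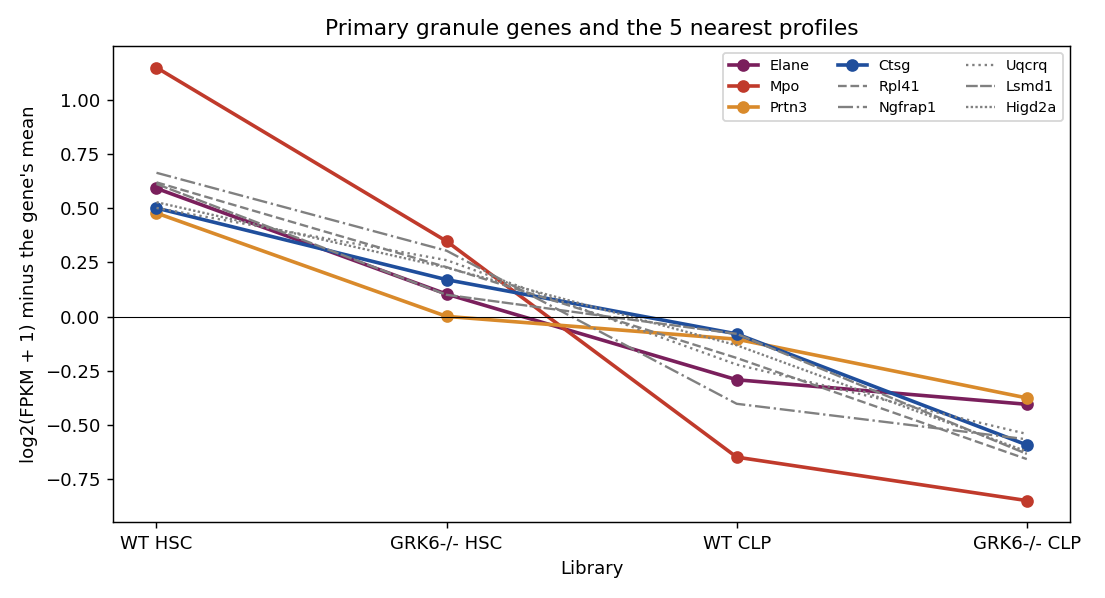
Profiles of the 4 primary granule genes (solid lines) and of the 5 nearest other genes (grey broken lines), as log2(FPKM + 1) minus the mean of the gene, with lines joining the 4 libraries of each gene. All 9 genes step down from WT HSC to the library labelled GRK6-/- CLP, and Mpo has the widest span, from 1.15 to -0.85.

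Companions of the primary granule genes in promyelocytes ranged widely in level, from 0.464 FPKM or 0 (Hdc and Gstm1 in the labelled GRK6-/- CLP) to 3659 (Plac8 in WT CLP). The list held 15 genes, all with a value. Srgn, the gene of the proteoglycan serglycin that holds proteases in granules, had 2840.3 FPKM in WT HSC, 2116 in the labelled GRK6-/- HSC, 1845 in WT CLP and 1598 in the labelled GRK6-/- CLP, the same order as the proteases. Plac8 was highest in WT CLP, at 3659 FPKM against 2429, 2642 and 1311 in WT HSC, the labelled GRK6-/- HSC and the labelled GRK6-/- CLP. Cd63, which encodes a membrane protein of primary granules, was at 318 FPKM in WT HSC, 57.0 in the labelled GRK6-/- HSC, 41.9 in WT CLP and 182 in the labelled GRK6-/- CLP. Nkg7 was at 597, 398, 248 and 415 FPKM in the same order, and Gstm1 at 129, 122, 62.4 and 0. In HSC 4 of 15 genes were lower past the fold in the labelled GRK6-/- (Cd63, and Ms4a3, Hp and Fcnb, named after their values were seen) and 0 higher, with a median of -0.43, which makes 26.7% beside 37.4% of all genes. In CLP 3 were higher (Cd63, Hp and Fcnb) and 5 lower (Plac8, Gstm1, Cst7, Mgst1 and Hdc, the last 3 named after their values were seen), with a median of -0.37, which makes 53.3% beside 50% of all genes.

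Genes that activate or inhibit the granule proteases could be followed only in part. Of 11 listed genes, 4 had rows of their own, 3 were left out of the counts because they shared a row with another gene in at least 1 library, and 4 had no row. Ctsc, whose product cathepsin C trims the proenzymes of the granule serine proteases to their active form, had 31.8 FPKM in WT HSC, 16.9 in the labelled GRK6-/- HSC, 35.2 in WT CLP and 15.6 in the labelled GRK6-/- CLP. The inhibitor gene Slpi, whose product blocks elastase and cathepsin G, had 46.6, 39.3, 95.2 and 43.9 FPKM in the same order, and Cst3 (cystatin C) 628, 578, 1012 and 449. These 3 genes were highest in WT CLP. Of the genes with rows of their own, 0 of 4 passed the fold in HSC (median -0.18), beside 37.4% of all genes, and 3 of 3 were lower past it in the labelled GRK6-/- CLP (median -1.13), beside 50%. Serpinb1a, which encodes an inhibitor of elastase, proteinase 3 and cathepsin G, is not in these counts. Its row, shared with Serpinb1c except in WT CLP, was at 224 FPKM in WT HSC, 110.2 in the labelled GRK6-/- HSC, 156 in WT CLP and 154 in the labelled GRK6-/- CLP. The log2 ratio of that row was -1.02 in HSC, past the fold, and -0.01 in CLP. Serpinb1a was named after its values were seen.

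Other genes of secondary and tertiary granules and late neutrophils were mostly low. Of 15 listed, 12 had a value in at least 1 library, and Mmp9, Ly6g and Olfm4 had none. Pglyrp1, the gene of a peptidoglycan recognition protein of granules, had 305 FPKM in WT HSC, 96.8 in the labelled GRK6-/- HSC, 68.0 in WT CLP and 211 in the labelled GRK6-/- CLP, and Anxa1 (annexin A1) had 138, 64.6, 313 and 116. Cebpe encodes the C/EBP factor known to be needed for secondary granule genes. It stood at 36.3, 40.0, 1.84 and 28.0 FPKM in WT HSC, labelled GRK6-/- HSC, WT CLP and labelled GRK6-/- CLP, lowest in the library that alone had a value for Ltf. Retnlg had 55.4 FPKM in WT CLP and was listed at 0 in the other 3 libraries, and Ifitm6, listed at 0 in WT HSC and in the labelled GRK6-/- CLP, had 16.7 FPKM in the labelled GRK6-/- HSC and 10.3 in WT CLP. In HSC 1 of 9 genes was higher in the labelled GRK6-/- past the fold (Ifitm6) and 4 lower (Anxa1, Pglyrp1, and Lcn2 and Chi3l3, named after their values were seen), with a median of -0.49, which makes 55.6% beside 37.4% of all genes. In CLP 4 of 12 were higher (Pglyrp1, Cebpe, Lcn2 and Itgb2l) and 6 lower (Anxa1, Retnlg, Ifitm6, Mmp8, Cxcr2 and Il1b). Lcn2, Itgb2l, Mmp8, Cxcr2 and Il1b were named after their values were seen. The median was -0.82, and the share past the fold was 83.3% beside 50% of all genes. Many genes of the list lie at a low level, and 5 of the 6 lower ones were listed at 0 in the labelled GRK6-/- CLP.

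**Figure D4:**
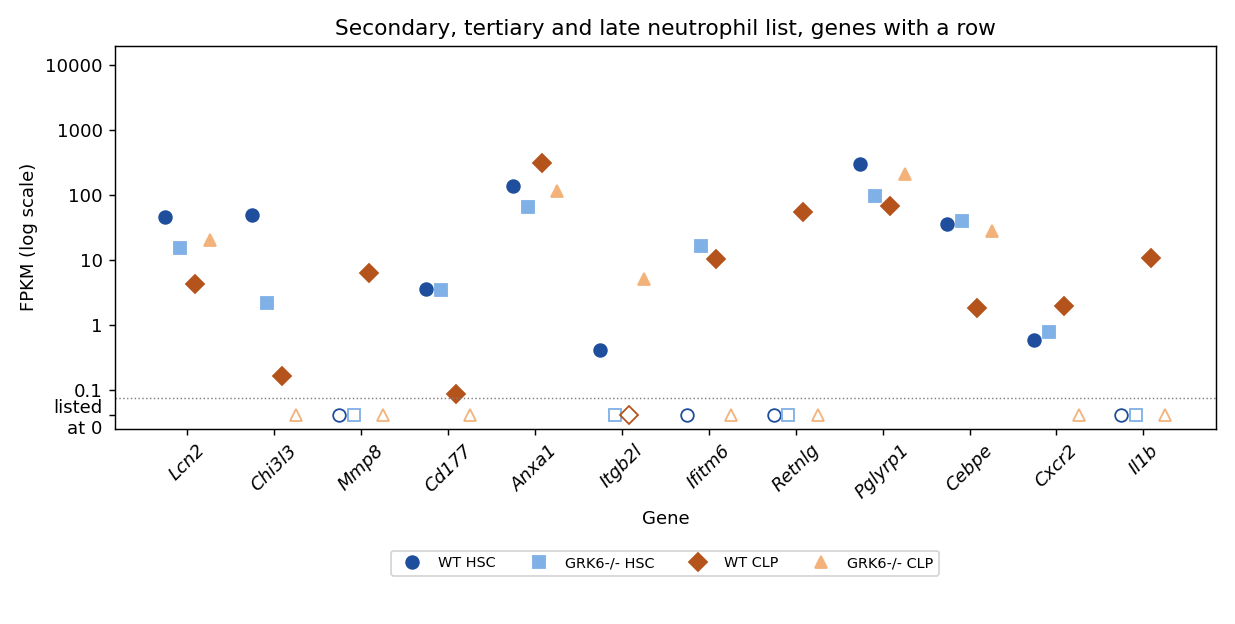
FPKM on a log axis of the 12 genes of the secondary, tertiary and late neutrophil list that had a value in at least 1 of the 4 libraries, with open symbols for a library that listed the gene at 0. Pglyrp1 and Anxa1 lie above 60 FPKM in all 4 libraries, and Retnlg, Mmp8 and Il1b have a value only in WT CLP.

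All 13 listed regulators of granule genes had a value in at least 1 library, and in each CLP library 12 of 13 did. Spi1, the gene of PU.1, had 133 FPKM in WT HSC, 202 in the labelled GRK6-/- HSC, 177 in WT CLP and 72.8 in the labelled GRK6-/- CLP, and Myb had 128, 101, 114 and 287. Irf8, whose product favours monocytes over neutrophils, had 1.12 FPKM in WT HSC, where the primary granule genes were highest, and 41.2, 152 and 190.3 in the labelled GRK6-/- HSC, WT CLP and the labelled GRK6-/- CLP. Cebpb had 1.74, 1.50 and 11.9 FPKM in WT HSC, labelled GRK6-/- HSC and WT CLP and was listed at 0 in the labelled GRK6-/- CLP. In HSC 1 regulator was higher past the fold (Irf8) and 1 lower (Cbfb, named after its value was seen), which makes 15.4% of 13 beside 37.4% of all genes. In CLP 4 were higher and 3 lower, 53.8% beside 50%. Lysosomal genes, which nearly all cell types use, had 12 of 12 members listed in every library, with 0 higher and 3 lower in HSC (25% beside 37.4% of all genes) and 4 higher and 2 lower in CLP (50%, the same as for all genes). Ctsd, for example, lay between 99.98 and 149 FPKM, Ctsz between 83.5 and 119, Hexa between 62.1 and 230.4 and Ctss between 22.9 and 188.

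Lists of markers of other myeloid cells differed in their order of libraries. The monocyte and macrophage list, with 7 of 10 genes in a row of their own, summed to 37.6 FPKM in WT HSC, 101 in the labelled GRK6-/- HSC, 165 in WT CLP and 208 in the labelled GRK6-/- CLP. Of the last sum 188 FPKM were Ctss, which is also a lysosomal gene, and without it the sums were 14.6, 56.5, 128 and 20.5 FPKM. Csf1r, which defines these cells, was at 0.889, 11.6, 16.6 and 0 FPKM. The basophil, mast cell and eosinophil list, with 5 of 8, summed to 206, 173, 50.0 and 9.69 FPKM. The sum had the order of the primary granule genes, but not every gene in it did. Cpa3 was at 116, 47.8, 0 and 0.801 FPKM and Mcpt8 at 19.1, 74.9, 22.4 and 0. Between the HSC libraries 2 of 5 genes were higher past the fold in the labelled GRK6-/- (Mcpt8 and Prg2). Another 2 were lower past it (Cpa3 and Epx), where 37.4% of all genes passed. Prss34, Fcer1a and Ms4a2 had no row. Cx3cr1, a monocyte marker, had a value only in WT CLP (18.5 FPKM), the library with the highest S100a9. The part of such cells in the values of the members was not tested.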

How the data were processed

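RNA-seq values of 4 mouse libraries were analysed. Per the submitters' processing notes and the study's methods, the authors aligned reads to mm9 with TopHat 1.4.0 and deposited 1 FPKM value per gene and library. The quantification tool's version and settings are not given in the sources used here. Rows with the same symbol were summed, an absent row was read as 0, and 478 names in rows shared by several genes were left out. Ratios were log2((FPKM + 1)/(FPKM + 1)), called at an absolute value of 1, with no test, since each group had 1 library. Depth, estimated from steps in low FPKM values, was 2790000 to 4350000 fragments, below the read number given in the methods (the estimate can be too low, and fragment numbers are rough). Rows numbered 10056 to 11060 per library. The named genes were all members, the 3 highest genes of each list and the gene with the largest ratio in each genotype comparison, and the 5 nearest profiles. Members and lists were chosen with earlier results of these data known. Pseudocounts of 0.1 and 10, a filter, 2 rescalings, the highest row per symbol and a stricter fold were tried. Scripts (Python 3.11.15, pandas 2.3.3, numpy 2.4.6, matplotlib 3.10.9) were tested on simulated data.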

Additional observations from a re-analysis of the deposited data

Results flagged for a closer look

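Each difference below was found because the libraries of 1 group moved one way and those of the other the opposite way. None was tested, since each group had 1 library.

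Camp was listed at 0 in the labelled GRK6-/- HSC and had 9.37 FPKM in WT HSC, while in CLP it was listed at 0 in WT and had 68.0 FPKM in the labelled GRK6-/-. The same 4 values set CLP against HSC in opposite directions in the labelled genotypes.

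S100a8 was lower in CLP than in HSC in WT and higher in the labelled GRK6-/-, and the log2 ratios differed by 3.75.

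S100a9 was higher in CLP than in HSC in WT, with 269 FPKM in WT CLP, and listed at 0 in the labelled GRK6-/- CLP beside 1.63 FPKM in the labelled GRK6-/- HSC.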

How the results depend on the processing

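No paired analysis was possible because each group had 1 library and no replicate number. Of 254 recomputed values 244 stayed on their side of the fold or within the range of the reported one, and 0 changed sign while past the fold. Part of this was fixed in advance. The highest row per symbol changed no log2 ratio, and 38 of 38 values stayed the same with it. The filter and the stricter fold do not alter a ratio either. Ratios of single members listed at 0 in 1 of the libraries compared were not among these values. With at least 1 FPKM required in both libraries, members past the fold numbered 0 instead of 4 between the CLP libraries and 2 instead of 5 between CLP and HSC in the labelled GRK6-/-, because genes listed at 0 leave the count. At an absolute log2 ratio of 2, 2 instead of 6 members passed between CLP and HSC in WT and 2 instead of 5 in the labelled GRK6-/-. Mpo between CLP and HSC in the labelled GRK6-/- was -1.19, and -0.98 in TPM. This scaling moved the median of all genes from 0.05 to -0.05 between the HSC libraries and from -0.08 to 0.08 between CLP and HSC in the labelled GRK6-/-, where Lyz2 became 0.03 instead of -0.18. The primary to late difference kept its sign in every library, between 4.87 and 14.62. Of all genes, 4346 passed between the HSC libraries, 5593 between the CLP libraries, 5209 between CLP and HSC in WT and 5340 in the labelled GRK6-/-. With a pseudocount of 10 FPKM these were 1387, 2421, 2056 and 2057, with the stricter ratio 1445, 2775, 2292 and 2240, and with 1 FPKM in both libraries 2646, 3046, 3035 and 3058. Short or rare transcripts such as Camp, Ltf and S100a9 rest on few fragments.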
